A study of Mus musculus with 8 samples.

Results

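The cluster of mir-143 and mir-145a and the group of mir-199 and mir-214, miRNAs known for their high levels in fibroblasts and smooth muscle, were followed in small RNA libraries of mouse myoblasts. Members were chosen by name: mmu-mir-143, mmu-mir-145a, mmu-mir-199a-1, mmu-mir-199a-2, mmu-mir-199b and mmu-mir-214 (without the species prefix from here on), which make up 6 of the 1181 miRNA precursors listed by the authors. All 6 were abundant enough to be compared. The libraries come from myoblasts, the mononuclear precursors of muscle fibres, of 4 old and 4 young C57BL/6J mice, and each library is numbered by its mouse (old 1 to old 4, young 1 to young 4). The labels give neither the ages in months nor the sex, the muscle, the purification or the time in culture, and no genotype or treatment other than age separates the groups. Values are log2 abundances per precursor as deposited, on a scale whose low values move in steps like reads per kilobase of precursor, so that levels of different precursors are compared per length.

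A miRNA is a short RNA cut from a hairpin precursor, either from its 5p or its 3p arm, and it represses messenger RNAs that pair with its seed (bases 2 to 8). miR-143 and miR-145 are made from a shared transcript, promote the contractile state of smooth muscle and are also made by fibroblasts and pericytes. miR-199a and miR-214 are made from Dnm3os, a long noncoding RNA of developing mesenchyme that runs antisense within the dynamin gene Dnm3. They are active in fibroblasts during fibrosis, and miR-214 is also induced in differentiating muscle cells, where it represses the Polycomb enzyme Ezh2. A signal of these miRNAs in a myoblast library can therefore come from myogenic cells as well as from other mesenchymal cells.

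The sequences show why the rows of the mir-199 precursors cannot be taken as separate measurements. Sequences from a RefSeq table (GRCm38.p6, the build that mm10 denotes) were matched to 4 of the 6 members. In the hairpins below the annotated mature arms are in capitals.
mir-199a-1: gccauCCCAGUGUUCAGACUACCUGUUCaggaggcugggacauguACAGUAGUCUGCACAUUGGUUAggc
mir-199a-2: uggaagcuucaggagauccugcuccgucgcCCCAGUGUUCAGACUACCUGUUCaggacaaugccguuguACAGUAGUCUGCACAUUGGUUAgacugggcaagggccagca
mir-199b: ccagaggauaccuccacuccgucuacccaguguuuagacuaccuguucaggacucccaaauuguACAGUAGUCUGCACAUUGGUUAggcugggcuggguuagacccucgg
mir-214: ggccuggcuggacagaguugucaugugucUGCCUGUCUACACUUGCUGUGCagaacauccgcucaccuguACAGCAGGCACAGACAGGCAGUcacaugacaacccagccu
Both arms of mir-199a-1 and mir-199a-2 were identical, and the 22 bases of miR-199a-3p stood unchanged in the hairpin of mir-199b. On the 5p side the hairpin of mir-199b matched miR-199a-5p at 22 of 23 bases. The difference was C10U, counted from 1 at the 5′ end of miR-199a-5p with its base first, so the stretch read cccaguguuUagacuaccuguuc. A read from the 3p arm therefore matches all 3 mir-199 precursors.

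By seed (capitals) the annotated mature miRNAs of these 4 hairpins fell into 4 kinds, of which the seed of the 3p arm was shared by the 3 mir-199 precursors. The seed of miR-199a-5p was shared by mir-199a-1 and mir-199a-2, and the matching 5p stretch in the hairpin of mir-199b has the same bases at 2 to 8, since C10U lies outside them. The miR-199 and miR-214 seeds differed, so the members of the group that come from Dnm3os pair with different target sites.
miR-199a-3p and miR-199b-3p: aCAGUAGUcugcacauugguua
miR-199a-5p: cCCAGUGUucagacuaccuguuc
miR-214-3p: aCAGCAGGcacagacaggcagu
miR-214-5p: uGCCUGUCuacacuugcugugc

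The promoter of Dnm3os is shown because mir-199a-2 and mir-214 are made from its transcript. Their rows ran together over the libraries (Pearson's r = 0.844, n = 8). mir-214 ran as closely with mir-199a-1 (0.856), which lies elsewhere in the genome but has the same mature arms as mir-199a-2. Reads of these arms cannot be assigned to either locus, so the r is no measure of the shared transcript. The RefSeq window (1:162217373-162217672, plus strand, GRCm38.p6) covers 250 bases before the start of the transcript and 50 after it, with a CArG box in capitals, the motif bound by serum response factor at many smooth muscle and muscle genes.
Dnm3os promoter: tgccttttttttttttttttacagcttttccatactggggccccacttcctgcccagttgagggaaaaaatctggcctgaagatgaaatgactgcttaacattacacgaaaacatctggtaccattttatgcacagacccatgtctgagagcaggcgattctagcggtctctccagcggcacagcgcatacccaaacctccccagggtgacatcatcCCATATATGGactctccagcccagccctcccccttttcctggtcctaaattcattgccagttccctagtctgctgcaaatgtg
The window held 1 CArG box, found on both strands since the motif is its own reverse complement, and 1.63% of the 32851 promoter windows of the same length held at least 1. It also held 3 E-boxes (CANNTG, the motif of MyoD and TWIST1, likewise read on both strands), none overlapping the CArG box, and 72.3% of all windows held at least 1. These matches describe letters, not binding.

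The members lie at 4 places in the genome (mm10, 1-based). mir-143 (18:61649196-61649258) and mir-145a (18:61647825-61647894) lie 1301 bp apart on chromosome 18, within the span that RefSeq gives to the long noncoding RNA gene Carmn. On chromosome 1, mir-199a-2 (1:162217814-162217923) and mir-214 (1:162223368-162223477) lie 5444 bp apart on the plus strand, both in exons of Dnm3os and antisense to introns of Dnm3. mir-199a-1 (9:21496495-21496564, minus strand) lies antisense to an intron of Dnm2, and mir-199b (2:32318460-32318569, plus strand) antisense to an intron of Dnm1. A separate precursor named mir-145b was listed at 0 in all 8 libraries.

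The labelled cell type was checked against miRNAs that mark muscle. mir-206, a miRNA of myoblasts and regenerating muscle, lay between 14.78 and 16.52 in the 8 libraries, and mir-133a-1 between 11.91 and 14.92, whereas mir-1a-1 and mir-1a-2, which rise in differentiated fibres, reached no more than 3.22 and 2.47. The rest of the muscle list did not go one way. mir-133a-2, mir-133b and mir-486 lay at 10.17 or more, while mir-1b, mir-208a, mir-208b and mir-499 reached no more than 2.71, 2.05, 4.57 and 5.42. Of the blood markers, mir-142, mir-223 and mir-144 were listed at 0 in all 8 libraries, mir-451a reached 0.89 and mir-150 ran from 1.04 to 4.47. Read as RPKM (reads per length of the precursor and per depth of the library), the values give library sizes of 25.1 to 27.9 M reads for old and 30.0 to 39.4 M for young mice. At that depth the members were backed by 702 reads or more each (the fewest being those of mir-145a in young 3), so counting error was small beside the spread between libraries. Over the 321 compared precursors outside the imprinted cluster of chromosome 12, a first principal component with 37.6% of the variance set old 4 and young 4 at one end.

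mir-143 was by far the most abundant member and mir-145a, its neighbour in the genome, the least. Per length and averaged over the 8 libraries, the order of log2 levels was mir-143 (14.99, the 24th most abundant of 1181 precursors), mir-214 (12.49), mir-199a-1 (11.55), mir-199a-2 (10.97), mir-199b (10.23) and mir-145a (9.14, 136th). The range of mir-143 did not overlap that of mir-214. From there on the ranges of neighbours over the libraries overlapped, but within a library the order per length of mir-214, mir-199a-1, mir-199a-2 and mir-199b was the same in 8 of 8. Between the mir-199a copies this order rests on the lengths of the precursors. In reads, mir-199a-2 held 103.7% to 108.1% of mir-199a-1. Per length mir-199b exceeded mir-145a in 7 of 8, the exception being young 1. Without dividing by length, mir-199b had 1.31 to 5.36 times the reads of mir-145a, so it was higher in all 8.

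**Figure D1:**
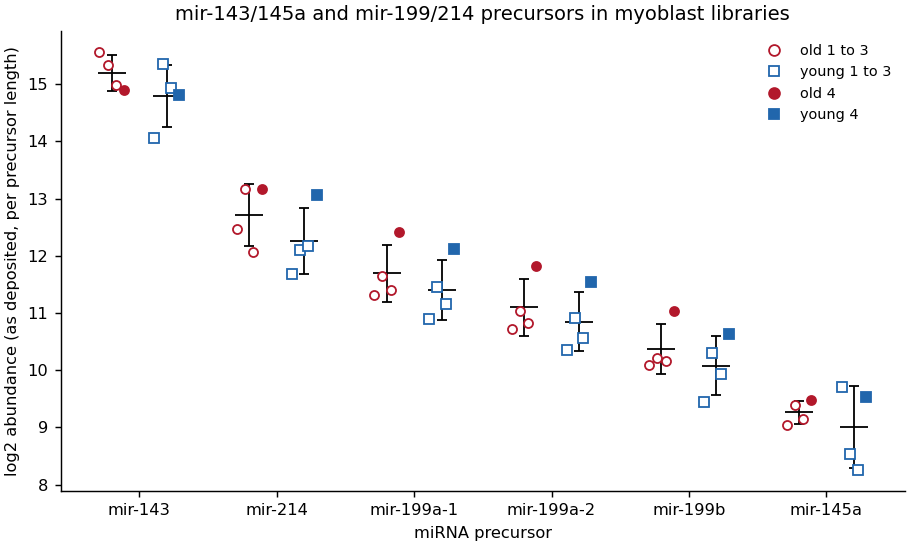
Log2 abundance as deposited (y axis) of the 6 precursors (x axis, ordered by mean) in 4 old (circles) and 4 young (squares) libraries, with filled symbols for old 4 and young 4, black dashes for group means and bars for ± 1 SD. mir-143 lies above all others in every library, and old 4 and young 4 lead their groups for the mir-199 precursors.

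mir-143 was lowest in young 1. Its log2 abundance was 15.56, 15.34, 14.99 and 14.89 in the old libraries 1 to 4 and 14.06, 15.35, 14.94 and 14.81 in the young libraries 1 to 4. Old 1 was highest, with the other young libraries inside or just below the old range. On the linear scale the level ran from 17080 in young 1 to 48309 in old 1.

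mir-145a took another course. It measured 9.04, 9.39, 9.15 and 9.48 in the old libraries 1 to 4 and 9.70, 8.54, 8.26 and 9.53 in the young libraries 1 to 4. The young libraries thus split around the narrow old range, with young 1 and young 4 above it and young 2 and young 3 below. Young 1 was at once the lowest library for mir-143 and the highest for mir-145a.

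The mir-199 precursors were highest in old 4 and young 4. mir-199a-1 measured 11.32, 11.64, 11.41 and 12.42 in the old libraries 1 to 4 and 10.90, 11.46, 11.15 and 12.12 in the young libraries 1 to 4. mir-199a-2 measured 10.73, 11.04, 10.82 and 11.82 in old mice and 10.36, 10.91, 10.57 and 11.54 in young mice. These copies followed each other closely, with old 4 and young 4 on top and young 1 at the bottom. mir-199b, whose miRNA represses calcineurin-linked kinase Dyrk1a in the heart, measured 10.10, 10.22, 10.16 and 11.03 in old mice and 9.44, 10.31, 9.93 and 10.64 in young mice. It showed the same extremes.

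mir-214 measured 12.47, 13.16, 12.07 and 13.16 in the old libraries 1 to 4 and 11.69, 12.11, 12.18 and 13.07 in the young libraries 1 to 4. Old 2 stood as high as old 4 here, which was not so for the mir-199 precursors. In 3 of the 6 members, the mir-199 precursors, old 4 was the highest old and young 4 the highest young library, a pattern shared by 38.7% of the 359 compared precursors. In 5 of the 6, all except mir-145a, young 1 was the lowest of the 8 libraries, as it was for 30.4% of the 359 compared precursors, and 4 of these 5 are the mir-199 and mir-214 rows.

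Ratios within a library do not depend on how libraries were scaled, and they separated the members further. mir-143 exceeded mir-145a by 6.52, 5.95, 5.84 and 5.41 log2 units in the old libraries 1 to 4 and by 4.36, 6.81, 6.68 and 5.28 in the young libraries 1 to 4. Per length mir-143 was therefore 20.5 times as abundant as mir-145a in young 1 and 112.2 times in young 2. The ratio varied more among young libraries (5.78 ± 1.17, SD, n = 4) than among old ones (5.93 ± 0.46), a difference of spread that was not tested. Means differed by 0.15 between old and young, which was within the spread (two-sided exact permutation p = 0.829, adjusted p = 0.914 over 5 ratios tested).

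mir-214 exceeded the row of mir-199a-2, the other precursor in Dnm3os, by 1.74, 2.12, 1.25 and 1.34 in the old libraries 1 to 4 and by 1.33, 1.20, 1.61 and 1.53 in the young libraries 1 to 4, or 2.30 to 4.35 times. This was a far narrower range than that between mir-143 and mir-145a. mir-214 exceeded mir-199a-1, which lies elsewhere in the genome, by 0.65 to 1.52. Since the mature arms of the mir-199a copies are identical, a similar range had to follow, and it is no comparison with another locus. The part of the shared transcript was not tested. For mir-214 over mir-199a-2 the means were 1.61 ± 0.40 in old and 1.42 ± 0.19 in young mice (SD, n = 4 each, two-sided exact permutation p = 0.429, adjusted p = 0.914). Between the clusters, mir-143 exceeded mir-214 by 2.48 ± 0.64 in old and 2.53 ± 0.63 in young mice (exact permutation p = 0.914, adjusted p = 0.914). It did so least in old 4 (1.73) and young 4 (1.74).

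mir-199a-1 exceeded mir-199a-2 by 0.54 to 0.60 in all 8 libraries, and the log2 ratio of 110 to 70 bases, the lengths of mir-199a-2 and mir-199a-1, is 0.65. After allowing for length, mir-199a-2 held 103.7% to 108.1% of the reads of mir-199a-1. mir-199b held 56.3% to 70.8% of the reads of mir-199a-1. How reads that match several precursors were counted is not given in the sources used here, and the arms are not separated in the file, so the level of a single mir-199 locus cannot be read from it.

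**Figure D2:**
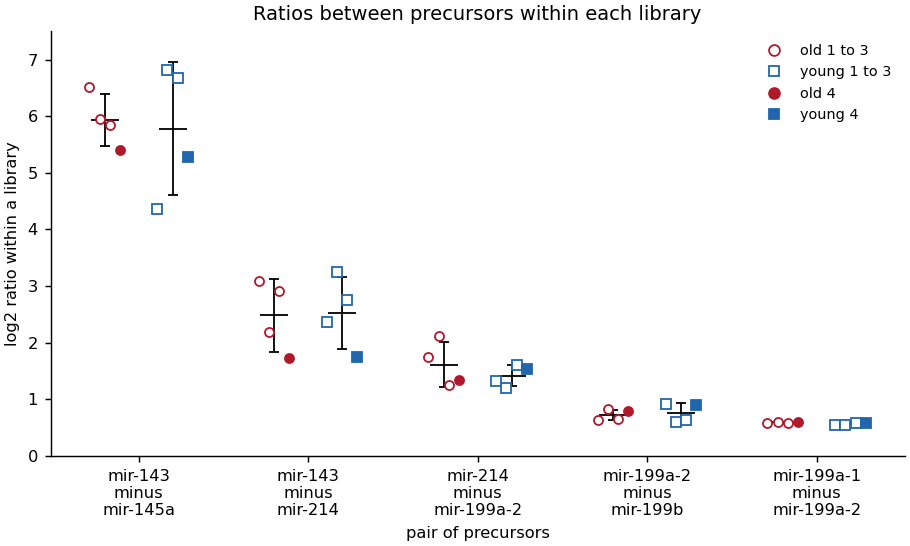
Log2 ratio within a library (y axis) for 5 pairs of precursors (x axis), with symbols, dashes and bars as in the plot of abundances. The ratio of mir-143 to mir-145a spans 4.36 to 6.81, while that of the mir-199a copies stays between 0.54 and 0.60.

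Over all 8 libraries the mir-199 precursors and mir-214 ran together. mir-143 and mir-145a ran apart from them and from each other, though single libraries weighed on this. As a description, with points that share library scaling and no test, Pearson's r was 0.999 between the mir-199a copies (n = 8), 0.967 between mir-199a-1 and mir-199b and 0.844 between mir-199a-2 and mir-214. Between mir-143 and mir-145a it was -0.47. mir-143 had an r of 0.17 with mir-199a-2 and of 0.37 with mir-214. Leaving out old 4 and young 4 (n = 6) gave 0.80 and 0.68 for these 2 pairs and -0.44 for mir-143 with mir-145a. Leaving out young 1 instead, a choice made after seeing the data (n = 7), gave -0.50 and -0.20 for these pairs and -0.20 for mir-143 with mir-145a. Which way mir-143 ran relative to mir-199a-2 and mir-214 thus turned on single libraries, and its negative relation to mir-145a was weaker without young 1. Without old 4 and young 4 mir-199a-2 and mir-214 had an r of 0.75. Running together was not limited to the group. Over 8 libraries mir-199a-2 had a higher r with mir-29a (0.949), mir-21a (0.907) and mir-126a (0.867) than with mir-214. Without old 4 and young 4 these were 0.91, 0.77 and 0.77. With the muscle miRNAs mir-206 and mir-133a-1 its r over 8 libraries was -0.63 for each. mir-145a had an r of 0.35 with mir-199a-2 and of 0.33 with mir-214 over 8 libraries. Without young 1 these were 0.75 and 0.80, and without old 4 and young 4 they were -0.14 and 0.04.

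Between old and young myoblasts no member passed the test. All 6 had a higher mean in old libraries, where 46.0% of the 359 compared precursors did, and 0 of the 6 passed an adjusted p of 0.05 in limma (background 0%; 0 of 359) or an unadjusted p of 0.05 (background 1.11%, 4 of 359). The old and young ranges overlapped for each member (0 of 6 without overlap, background 0.836%). The median log2 difference (old minus young) was 0.29 over the members and -0.05 over all compared precursors. The members are not 6 independent measurements, since the mir-199 precursors share mature sequences.

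mir-214 had the largest difference with all 8 libraries, 12.72 ± 0.54 in old against 12.26 ± 0.58 in young mice (SD, n = 4 each). The log2 difference was 0.45 with an SE of 0.40, or 1.37-fold with a 95% interval from 0.739 to 2.53 (limma adjusted p = 0.995; two-sided exact permutation p = 0.286, adjusted p = 1). It was 0.26 without young 1 and 0.72 without young 4, and without young 2 or young 3 it was smaller than that of mir-143 (0.40 against 0.59, and 0.43 against 0.46). mir-143 measured 15.20 ± 0.31 and 14.79 ± 0.54, a difference of 0.41 (SE 0.34), or 1.32-fold with an interval from 0.786 to 2.23 (limma adjusted p = 0.995, exact permutation p = 0.229). Without young 1 the difference was 0.16. The intervals of both members include equal levels as well as changes above 2-fold, so a change of that size was not excluded by 4 libraries a group.

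The remaining members differed by less. mir-145a measured 9.27 ± 0.20 in old and 9.01 ± 0.71 in young mice, a difference of 0.26 (SE 0.41) that was 0.0083 without young 3. mir-199a-1 measured 11.70 ± 0.50 and 11.41 ± 0.53, mir-199a-2 measured 11.10 ± 0.50 and 10.85 ± 0.52, and mir-199b measured 10.38 ± 0.44 and 10.08 ± 0.52 (SD, n = 4 each). Their differences were 0.29, 0.26 and 0.30 (limma adjusted p = 0.995 for each; exact permutation p = 0.457, 0.486 and 0.400). Without old 4 these 3 differences were 0.049, 0.018 and 0.080. Without both old 4 and young 4 they were 0.29, 0.25 and 0.27, and those of mir-143, mir-145a and mir-214 were 0.51, 0.36 and 0.57, with limma adjusted p from 0.901 to 0.961.

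**Figure D3:**
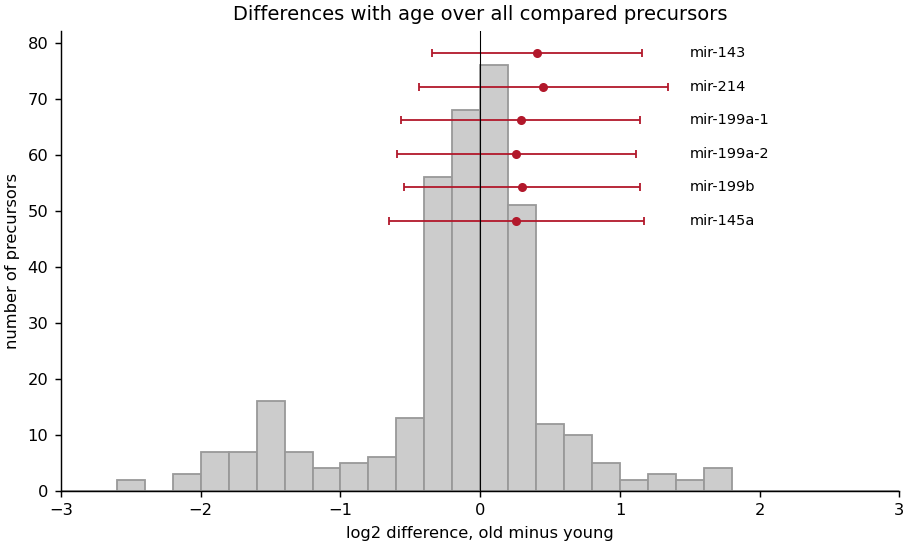
Distribution of the log2 difference, old minus young (x axis), over the 359 compared precursors (grey bars, y axis number of precursors), with the 6 members as points with 95% intervals at arbitrary heights. All 6 points lie between 0.26 and 0.45, and each interval crosses 0.

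Together the members held a small part of the miRNA signal. Counting the mir-199a copies once and leaving out mir-3107, a row that repeats mir-486, the members held 0.800%, 0.912%, 0.557% and 0.564% of the summed linear values in old 1 to old 4. In young 1 to young 4 they held 0.273%, 0.673%, 0.505% and 0.556%. Young 1 was lowest, and old 1 and old 2 were above all young libraries. The means were 0.708 ± 0.177% in old and 0.502 ± 0.168% in young mice (SD, n = 4 each, two-sided exact permutation p = 0.143). mir-143 alone made up 64.8% to 83.7% of the members' sum, so this share mainly follows mir-143. mir-486, a muscle-enriched miRNA and with mir-3107 the most abundant row, takes up much of the total. With both left out of the sum the shares were 1.18 ± 0.350% and 0.774 ± 0.180% (exact permutation p = 0.114). With every listed row counted they were 0.479 ± 0.112% and 0.370 ± 0.159% (exact permutation p = 0.343), and old 1 at 0.492% then lay below young 2 at 0.504%. In the first count, the difference fell from 0.206 to 0.130 percentage points without young 1 and to 0.138 without old 2.

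Set against mir-206 as a myoblast miRNA, mir-143 stood at -0.58, -0.49, -0.89 and -0.87 log2 units in the old libraries 1 to 4 and at -1.86, -0.32, -1.58 and 0.03 in the young libraries 1 to 4. Per length, young 4 was the sole library in which mir-143 was listed above mir-206. Without dividing by length, mir-143 had 0.238 to 0.881 times the reads of mir-206, so it was lower in all 8. mir-214 stood at -3.67, -2.67, -3.81 and -2.60 relative to mir-206 in old and at -4.23, -3.56, -4.34 and -1.71 in young mice, with young 4 again highest. Neither ratio differed between the groups beyond the spread: mir-143 to mir-206 was -0.71 ± 0.20 in old and -0.93 ± 0.93 in young (exact permutation p = 0.629), and mir-214 to mir-206 was -3.19 ± 0.64 and -3.46 ± 1.22 (exact permutation p = 0.771; adjusted p = 0.914 for both, SD, n = 4 each). In bulk RNA, fewer cells of a type and less RNA per cell cannot be told apart, and this holds for each ratio of a mesenchymal to a muscle miRNA here.

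Markers of muscle and of other cell types were set beside the mir-199 precursors, which were highest in old 4 and young 4. The summed log2 level of the muscle list (11 of its 13 names in the file, 7 compared) ran from 21.11 to 21.76 in old and from 20.33 in young 4 to 22.14 in young 1. This sum is almost all mir-486, which itself ran from 20.29 in young 4 to 22.11 in young 1. None of the 7 compared muscle precursors was highest in both old 4 and young 4 (0 of 7, against 38.7% of all compared precursors). The 7 include mir-133a-1 and mir-133a-2, copies of the same miRNA. The muscle precursors did not all run alike: mir-133b was highest of the 8 libraries in old 4 (13.28) and lowest in old 2 (10.17), with 11.05 in young 4. The endothelial miRNAs mir-126a and mir-126b were low, with a summed log2 level of 4.41 to 5.51 in old and 4.13 to 6.28 in young mice, and 2 of 2 were highest in old 4 and young 4. mir-126a, the defining miRNA of endothelium, measured between 2.96 and 5.11. mir-126b, between 3.29 and 5.43, ran nearly parallel to it, so these may not be separate measurements.

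Blood markers summed to 3.05 to 4.47 in old and 1.97 to 4.32 in young mice, with 3 of the 5 in the file at 0 throughout and 1, mir-150, compared (1 of 1 highest in old 4 and young 4). Epithelial markers summed to 5.30 to 8.12 and 6.10 to 7.65, with mir-200a and mir-429 at 0 in all libraries and 2 of 7 compared, mir-203 and mir-205, both highest in old 4 and young 4. mir-205 ran from 4.78 to 8.02. Nerve markers summed to 9.96 to 10.72 and 10.58 to 10.75 (2 of 8 compared), almost all of it mir-128-1 between 9.90 and 10.71. mir-219a-1, the other nerve marker compared, ran from 4.48 to 6.00 and was highest in old 4 and young 4 (1 of 2). mir-124-3 reached 3.22, and mir-9-1, mir-9-2 and mir-9-3 reached no more than 1.68, 2.21 and 1.57. The part of other cell types in the levels of the members was not tested.

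**Figure D4:**
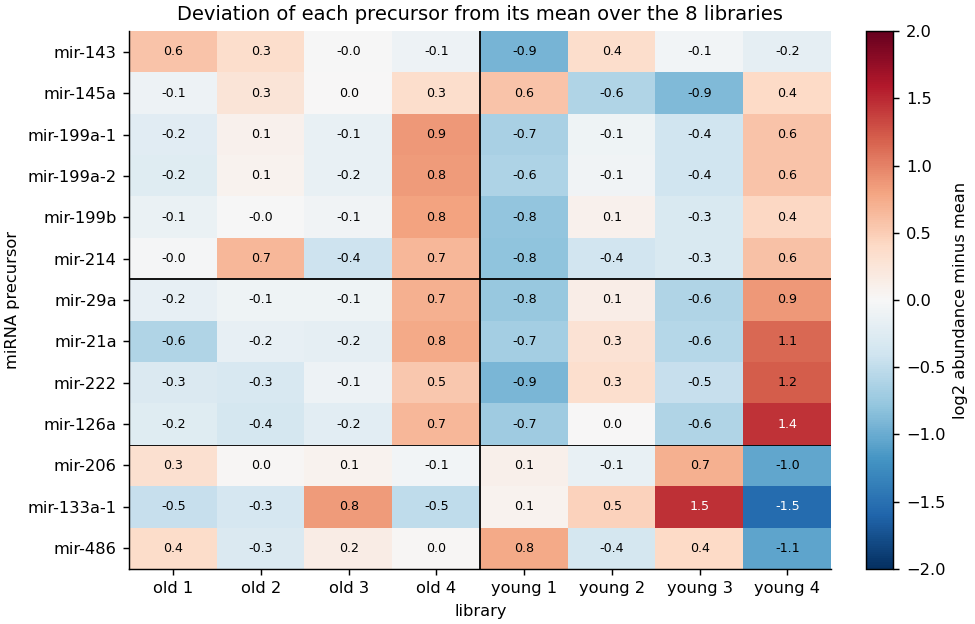
Log2 abundance of each precursor (rows) in each library (columns) minus that precursor's mean over the 8 libraries, in colour and figures, for the 6 members (top), mir-29a, mir-21a, mir-222 and mir-126a (middle) and the muscle miRNAs mir-206, mir-133a-1 and mir-486 (bottom). Old 4 and young 4 are raised for the mir-199 precursors, mir-214 and the middle block, and young 4 is lowest for mir-206, mir-133a-1 and mir-486. The muscle miRNA mir-133b, not shown, was highest in old 4. The middle block was picked with its values in view. Of the compared miRNAs, 13 of 14 linked to fibrosis and 6 of 11 linked to smooth muscle were highest in both old 4 and young 4. mir-10a of the smooth muscle list, not shown, was highest in old 3 and young 2 of their groups.

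None of the other miRNAs linked to fibrosis and smooth muscle passed the test between old and young mice. Of 17 miRNAs linked to collagen and fibrosis 14 were compared, of which 8 had a higher and 6 a lower mean in old libraries, with a median difference of 0.06, and 0 passed (background 0%). 13 of these 14 were highest in both old 4 and young 4, against 38.7% of all compared precursors. The 14 include copies of the same miRNA, such as mir-30c-1 and mir-30c-2, and are not separate measurements. mir-29a, which represses collagens and other matrix genes, measured 12.65 ± 0.41 in old and 12.46 ± 0.75 in young mice, and mir-21a, a miRNA raised in fibrosis, 13.32 ± 0.57 and 13.41 ± 0.85. mir-34a, a target of p53, measured 11.80 ± 0.42 and 11.70 ± 0.76, and mir-155, known from immune cells, 11.16 ± 0.62 and 11.00 ± 0.78 (SD, n = 4 each). mir-29a followed the mir-199a copies (r = 0.949 with mir-199a-2 over 8 libraries and 0.907 over 6 without old 4 and young 4). With mir-145a its r was 0.30 and -0.19, but 0.73 without young 1, so that relation turned on single libraries.

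Of 13 miRNAs linked to the smooth muscle phenotype 11 were compared, 6 with a higher and 5 with a lower mean in old libraries, a median of 0.03 and 0 passing. The pair of mir-222 and mir-221 favours the proliferative state of smooth muscle, and mir-222 measured 14.00 ± 0.40 in old against 14.09 ± 0.94 in young mice and mir-221 14.30 ± 0.66 against 14.31 ± 0.81. mir-22 measured 16.75 ± 0.32 and 16.84 ± 0.83, and mir-100 14.99 ± 0.62 and 14.77 ± 0.68. Of 12 stromal miRNAs linked to TGF-beta signalling 11 were compared, again 6 higher and 5 lower, with a median of 0.01 and 0 passing. The most abundant of these were mir-181a-2 at 18.07 ± 0.25 and 18.31 ± 0.51, mir-181a-1 at 17.85 ± 0.25 and 18.09 ± 0.51, mir-125b-1 at 16.86 ± 0.37 and 16.89 ± 0.72 and mir-125b-2 at 16.37 ± 0.38 and 16.35 ± 0.64 (SD, n = 4 each). Picked with its values in view, mir-146a of the smooth muscle list, which NF-kB signalling is known to induce, measured 5.48 ± 0.97 in old mice and 4.10 ± 0.28 in young mice, a log2 difference of 1.38 (SE 0.54), and its 4 old libraries all lay above the 4 young ones. Old and young libraries did not overlap, in either direction, for 3 of the 359 compared precursors (0.836%). Its adjusted p by limma was 0.995, and the exact permutation p of 0.0286, two-sided, is the smallest that 4 against 4 allows. 6 of the 11 smooth muscle and 6 of the 11 stromal miRNAs were highest in old 4 and young 4, against 38.7% of all compared precursors. Both lists hold copies of the same miRNA, so these are not counts of separate measurements. The lists share members with each other.

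The precursors whose pattern was most like that of mir-143 were not those most like mir-214. Over the 8 libraries, and as a description without a test, mir-143 ran closest to mir-1247 (r = 0.926), mir-7666 (0.883), mir-5131 (0.856), mir-6963 (0.839) and mir-147 (0.817). These 5 are of low abundance, with mean log2 levels from 3.04 to 5.28. mir-214 ran closest to let-7b (0.938), mir-185 (0.930), let-7c-2 (0.927), mir-874 (0.927) and let-7c-1 (0.926), among which let-7b, a miRNA of differentiated cells, had a mean log2 level of 15.41. The let-7c copies share their mature miRNA and are not separate measurements.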

How the data were processed

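The authors deposited log2 values with 2 decimals, floored at 0, for 1181 precursors. The submitters' processing notes name BWA and mm10; how reads were trimmed, counted, filtered and normalized is not given in the sources used here. Low values times precursor length fell on whole multiples of a step in 98.8% to 100% of cases (up to 12 reads, tolerance 0.1 of a read), as RPKM values would; library sizes and read numbers rest on that.

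The 359 precursors that reached a linear value of 10 in 4 or more libraries were fitted with limma 3.58.1 (R 4.3.3, eBayes with trend) on the values as deposited, old minus young. P-values were adjusted by Benjamini-Hochberg over all 359, threshold 0.05. Two-sided exact permutation tests used the 70 arrangements of 4 and 4 libraries, whose smallest p is 0.0286. Each library is labelled with its own mouse. The fit was tested on simulated data with independent noise for each precursor and library. Precursors of the real libraries share deviations, which that simulation does not cover. Other tools were Python 3.11.15, numpy 2.4.6, pandas 2.3.3 and matplotlib 3.10.9.

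The members and lists were chosen with earlier results of these data known. Named miRNAs were the 6 members, up to 4 of the most abundant compared miRNAs of each list, and the 5 most correlated with mir-143 and with mir-214; mir-146a, miRNAs at 0 or low in marker lists, and those in the heat map, were picked with their values in view. RefSeq positions matched 1175 of 1181 precursors (358 of 359 compared). Alternatives covered pseudocounts, filters, rescaling, trend, array weights, a replicate block, averaged copies, voom on recovered reads, and libraries left out.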

Additional observations from a re-analysis of the deposited data

Results flagged for a closer look

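mir-199b in old 4, at a log2 abundance of 11.03, stood apart from the other 3 old libraries, which lay between 10.10 and 10.22. Its gap to the nearest library was 0.871 of the group's range, above Dixon's 95% critical value of 0.829 for 4 samples. It was the sole such value among 24 groups checked (the members, the 5 ratios tested and the members' share, each in old and in young), and chance gives about 1 in 20 groups.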

How the results depend on the processing

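No precursor passed in the main comparison or in any of its 21 alternatives, and all members had a higher mean in old libraries in each. The members' median difference ranged from 0.13 (without old 4) to 0.49, and single members' limma adjusted p from 0.568 to 1. Leaving mir-486 and mir-3107 out of the sum used for rescaling moved the median of all precursors from -0.05 to 0.14 and that of the members to 0.49. Relative to all precursors the members' median was 0.35 in both. This was fixed in advance, since such rescaling shifts every precursor of a library alike. Voom on recovered reads gave 0 calls and 1 at an unadjusted p under 0.05. With a replicate block 0 passed and 39 were at an unadjusted p under 0.05, against 4 without it; same-numbered libraries deviated together for 3 of 4 numbers (r = -0.064, 0.43, 0.66 and 0.58; old 2, old 3 and old 4 ran closest to their own number, old 1 to young 4), the labels give no pairing, and the block changed no call. Leaving out 1 library, the difference between old and young ranged from -0.33 to 0.49 for mir-143 to mir-145a, from -0.31 to 0.20 for mir-143 to mir-214, from -0.084 to 0.55 for mir-143 to mir-206 and from -0.021 to 0.86 for mir-214 to mir-206, so these signs are not settled; the cause was not tested. The floor at 0 touches no member, and 4 libraries a group, not depth, limit the precision.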
